A study of Mus musculus with 4 samples.

Results

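Neutrophils were recovered as a small population of the liver aspirates, 291 of the 26825 barcodes kept by the quality limits (1.08%). A barcode, which stands for a droplet that should hold a single cell, was counted as a neutrophil when it carried at least 10 unique molecular identifiers (UMIs, each a captured RNA molecule) of S100a8 and at least 10 of S100a9, no UMI of the B cell gene Cd79a and none of the T cell genes Cd3e and Cd3d. The levels of those genes therefore chose the cells and are given below as a description. The cells had at least 500 UMIs, at least 300 detected genes and at most 10% mitochondrial UMIs.

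Male C57BL/6J mice received the FPC diet, which is rich in fructose, palmitate, cholesterol and trans-fat, with either 0.05% or 1.25% cholesterol up to week 24, and all mice received 0.05% cholesterol from week 24 to week 32. Livers were sampled by image-guided fine-needle aspiration, and the cells were profiled by single-cell RNA sequencing of RNA 3′ ends. P-LC24 and P-HC24 are the low and high cholesterol groups at week 24, and I-LC32 and I-HC32 are the same mice at week 32, so that I-HC32 had left the high cholesterol diet for 8 weeks when sampled. Each library came from 12 biopsies of 3 mice, which were pooled before the tissue was digested and red cells and dead cells were removed. There was no group on ordinary chow, and with 1 pooled library per condition no condition has a replicate. The change between the weeks can be read separately in the low and the high cholesterol mice. That reading is given in the last section as a description and not as a test. Diet, week, sampling and library cannot be told apart. The files held 50941106 and 73837023 UMIs in P-LC24 and P-HC24, then 79215858 and 89257239 in I-LC32 and I-HC32.

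Neutrophils are short-lived phagocytes that are made in the bone marrow and reach the liver through the blood. They store antimicrobial proteins in granules that are filled in sequence during maturation. First come the azurophil granules (Mpo, Elane), then the specific granules (Camp, Ngp, Ltf, Lcn2) and last the gelatinase granules (Mmp9). The genes of the early granules are switched off before the mature cell is released, and S100a8 and S100a9, which form calprotectin, fill much of its cytosol. In steatohepatitis neutrophils are known for infiltrating the fatty liver, releasing chemokines and proteases, and also for taking part in its repair.

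Neutrophils made up 2.31% of the kept barcodes in P-LC24 (119 of 5142, 95% Clopper-Pearson interval 1.92 to 2.76%) and 1.76% in P-HC24 (122 of 6914, 1.47 to 2.10%). At week 32 the share was 0.445% in I-LC32 (33 of 7418, 0.306 to 0.624%) and 0.231% in I-HC32 (17 of 7351, 0.135 to 0.370%). Both week 32 shares lay below both week 24 shares, with no overlap of the intervals. The intervals, like all those given here, cover counting error and not the spread between mice.

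Along the low cholesterol mice the week 24 share was 5.20-fold that of week 32 (3.51 to 7.90), and along the mice taken off high cholesterol it was 7.63-fold (4.57 to 13.5). Within a week the high cholesterol group had the lower share, 0.762-fold at week 24 (0.587 to 0.990) and 0.520-fold at week 32 (0.272 to 0.960). The week 24 order turned around when the mitochondrial limit was set at 5%, where P-HC24 had 3.77% and P-LC24 2.77%, because the limit removed no neutrophil but left 3239 and 4292 kept barcodes. Against the barcodes without a Cd79a UMI, which leaves out most B cells, the week 24 shares became 7.02% (P-LC24) against 6.60% (P-HC24), with overlapping intervals, and 1.57% and 0.929% in I-LC32 and I-HC32. The lower share at week 32 was present under all of these settings.

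**Figure D1:**
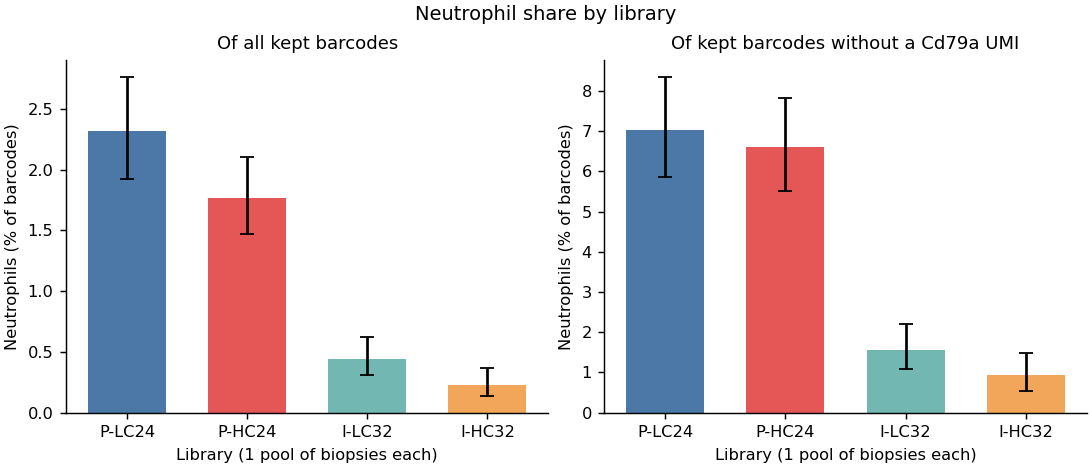
Neutrophils as a percentage of all kept barcodes (left) and of kept barcodes without a Cd79a UMI (right) in each library, with 95% Clopper-Pearson intervals that cover counting error only. The week 32 bars sit at 0.445% and 0.231% of all kept barcodes, below 2.31% and 1.76% at week 24.

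The label neutrophil was checked on genes that the choice had not used. Csf3r, the receptor of the granulocyte growth factor G-CSF, had a UMI in 288 of the 291 cells, and Retnlg, a resistin-like secreted protein of granulocytes, in 278. The chemokine receptor Cxcr2, the decoy interleukin-1 receptor Il1r2 and the cytokine gene Il1b were found in 90.8%, 99.2% and 98.3% of the P-LC24 neutrophils. For comparison, 500 B cell barcodes of that library had a median of 5799.5 UMIs against 4380 in the neutrophils. Among them Csf3r was found in 0.8%, Retnlg in 0.4%, Cxcr2 in 0.2% and Il1b in 1.8%. Whether RNA free in the suspension or droplets with more than a single cell gave these UMIs was not tested. With every barcode thinned to 1000 UMIs, Csf3r was found in 88.2% of the P-LC24 neutrophils and 0.4% of the B cells. Monocyte-type barcodes, chosen by at least 2 UMIs of Csf1r and 5 of Lyz2, were closer. Over all libraries Il1b in neutrophils was 105 times the level of all other kept barcodes but 9.86 times that of monocyte-type barcodes. For Csf3r these were 134 and 30.9 times. Over monocyte-type barcodes Il1r2 stood at 93.3 times, Cxcr2 at 6923 times and Retnlg at 15969 times.

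Among the genes that stood furthest above all other kept barcodes were, besides the genes of the rule, the stefin genes Cstdc4 and Stfa2l1, Retnlg, the interleukin-1 family cytokine Il36g, Cxcr2 and the gelatinase Mmp9. The 30 leading genes lay between 132 and 1049 times the level of the other barcodes, measured in counts per 1000000 UMIs (CPM). Cstdc4 and Stfa2l1 belong to a family of near-identical copies, so that reads could be split among them. Myeloperoxidase (Mpo), neutrophil elastase (Elane), Ctsg, Ms4a3 and Cst7, genes of the azurophil granule list, were at 0 in all 291 cells. Of the 8 genes of that list in the files the other 3 had UMIs, led by the proteinase Prtn3 with 88, of which 87 were in P-HC24, and 14 of the 122 barcodes of P-HC24 held a UMI of the list, 91 UMIs in all, of which 5 were in the core neutrophils that are defined below. At 0 too were defining genes of several other cell types, among them Clec4f and Marco of Kupffer cells, Trac of T cells, Ncr1 and Klrb1c of NK cells, Siglech of plasmacytoid dendritic cells, and Epx and Prg2 of eosinophils. Other genes of those lists were not at 0. Of the 6 Kupffer cell genes 4 had UMIs, led by the complement gene C1qb with 660, and the list stood at 1783 CPM in the neutrophils of P-HC24 against 1031 in the other barcodes, and at 10.7 CPM in the core neutrophils of P-HC24. Of the T cell, NK cell, dendritic cell and eosinophil lists the most abundant genes were Trbc2 with 4 UMIs, Gzma with 4, Flt3 with 8 and Ear2 with 14.

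**Figure D2:**
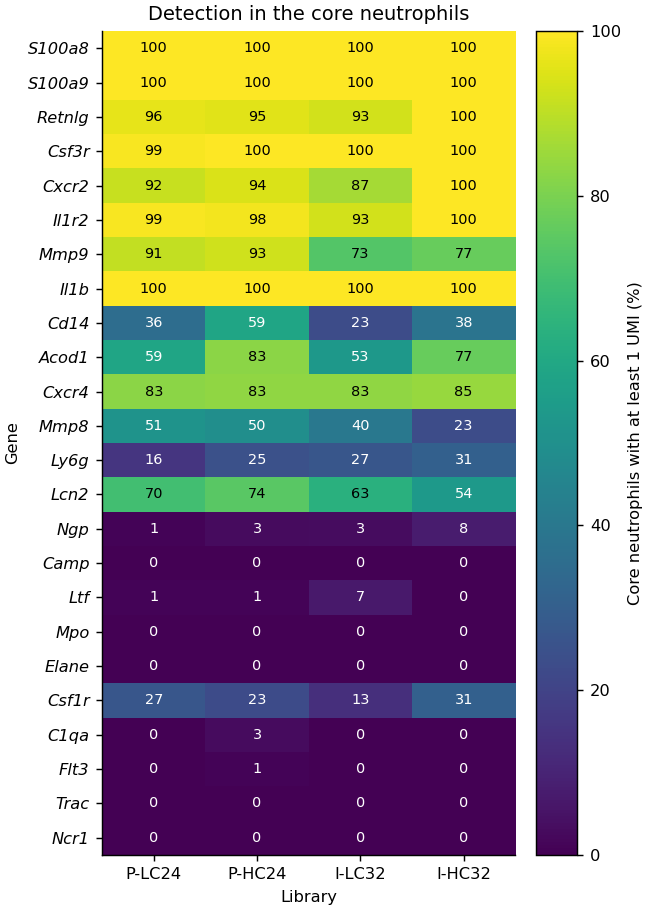
Percentage of core neutrophils (261 cells, defined below) with at least 1 UMI of each gene, by library. The genes listed from S100a8 to Il1b were found in most cells of every library, whereas Mpo, Elane, Trac and Ncr1 were found in none. Camp was also found in none, after the barcodes with at least 5 UMIs of Camp and 5 of Ngp were left out.

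Neutrophils were small in RNA content. Their median was 4380 and 4133.5 UMIs in P-LC24 and P-HC24, then 2808 and 3490 in I-LC32 and I-HC32, against 6403, 7548.5, 7209.5 and 8928 over all kept barcodes of the same libraries. They also held few mitochondrial transcripts, with medians of 0.209%, 0.337%, 0.233% and 0.326% of UMIs against 3.81%, 5.10%, 4.86% and 4.12% over all kept barcodes. S100a8 and S100a9, which chose the cells, together made up 13.9%, 9.86%, 10.5% and 17.6% of all neutrophil UMIs in the same library order. 5 cells had 10 to 19 UMIs of the scarcer of these genes, just inside the limit, and 3 barcodes lay just outside with 5 to 9.

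A second count of cells bears on every comparison that follows. Of the 291 barcodes, 23 also held genes of other cells: 8 and 13 in P-LC24 and P-HC24, then 2 and none of the 17 in I-LC32 and I-HC32. The limits that define them were chosen after the values were seen: at least 2 UMIs of Gata6 and Prg4 together, 3 of Csf1r, 20 of Cd74, 6 of Cd79b, Ms4a1 and Igkc together, or haemoglobin genes at 5% of UMIs. They held 9.30%, 37.6%, 22.1% and 0% of the neutrophil UMIs of their libraries.

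In P-HC24, 8 barcodes carried 53 to 135 UMIs of Prg4, a gene of peritoneal macrophages together with Gata6. They held 21819 to 38793 UMIs each, 1043 to 1464 of them from the lysozyme gene Lyz2, and supplied 29.9% of the UMIs of that library's neutrophils. The same 8 barcodes carried neutrophil genes, with 57 to 534 UMIs of S100a8, 4 to 21 of Csf3r and 25 to 87 of Il1b. No doublet caller was run, and whether such a barcode held more than a single cell was not tested. In I-LC32 a barcode with 350 UMIs of the class II chain Cd74 held 17322 UMIs, and 5 barcodes in all were rich in haemoglobin RNA.

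**Figure D3:**
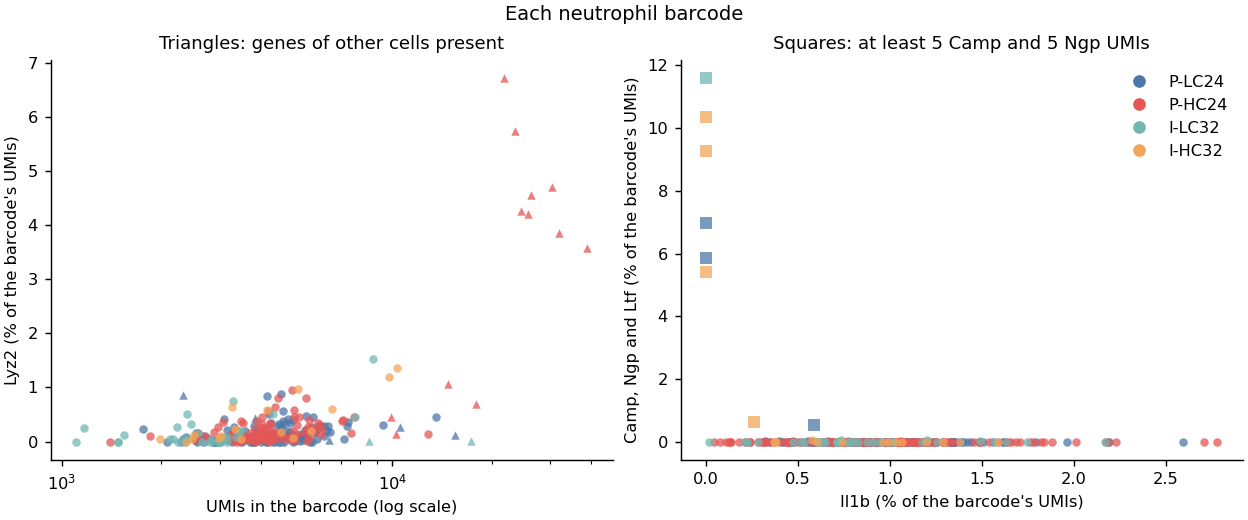
Each of the 291 neutrophil barcodes, coloured by library. Left, the UMIs in the barcode (log scale) against Lyz2 as a percentage of them, with the 23 barcodes that hold genes of other cells as triangles: 8 from P-HC24 stand apart at 21819 UMIs or more. Right, Il1b against the sum of Camp, Ngp and Ltf, both as a percentage of the barcode's UMIs, with the 8 barcodes that hold at least 5 UMIs of Camp and 5 of Ngp as squares: 6 of them lie at 0 Il1b.

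A few neutrophils stood apart by transcripts of Camp and Ngp, genes of the specific granules. At least 5 UMIs of Camp, the cathelicidin precursor, and at least 5 of Ngp, a granule protein of the cystatin family, were found in 8 barcodes, 3 of 119 and none of 122 in P-LC24 and P-HC24, then 1 of 33 and 4 of 17 in I-LC32 and I-HC32. As shares these were 2.52% (0.523 to 7.19%), 0% (an upper end of 2.98%, where 3 counts would be 2.46%), 3.03% (0.0767 to 15.8%) and 23.5% (6.81 to 49.9%). The I-HC32 share lay above that of P-HC24 without overlap of the intervals, and overlapped the interval of P-LC24 and of I-LC32. It rests on 4 cells.

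These 8 cells carried 6 to 457 UMIs of Camp and 27 to 556 of Ngp, and between 0 and 232 of Ltf, the lactoferrin gene. Besides the genes that chose them, they held 22 to 172 UMIs of Lcn2, the siderophore-binding lipocalin. In 6 of the 8 there was no Il1b UMI, and those 6 were the cells in which Camp, Ngp and Ltf took up 5.42% to 11.6% of the UMIs. By contrast, each of the 261 neutrophils that belonged to neither set had at least 1 UMI of Il1b, and none had a UMI of Camp. The 6 cells also had 0 to 4 UMIs of Csf3r, where the 261 had a median of 9. They came from 3 of the 4 libraries, 2 from P-LC24, 1 from I-LC32 and 3 from I-HC32.

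Camp, Ngp and Ltf lie near each other on mouse chromosome 9 (GRCm39 positions 109676442 to 109678685, 110248815 to 110252086 and 110848339 to 110871835), while Lcn2 lies on chromosome 2 (32274645 to 32278264). Camp and Ngp chose the 8 cells and Ltf is a gene of the same granule, whereas Lcn2, also a specific granule gene, had a UMI in 206 of the 291 neutrophils. The 250 bases before the transcription start of these granule genes are shown, from RefSeq on the GRCm38.p6 build. Capitals mark matches to TTGCNNAA or, on the opposite strand, TTNNGCAA, the core letters of a C/EBP recognition motif, a family of factors that act in granulocyte maturation.
Camp, chr9:109849457-109849706, minus strand: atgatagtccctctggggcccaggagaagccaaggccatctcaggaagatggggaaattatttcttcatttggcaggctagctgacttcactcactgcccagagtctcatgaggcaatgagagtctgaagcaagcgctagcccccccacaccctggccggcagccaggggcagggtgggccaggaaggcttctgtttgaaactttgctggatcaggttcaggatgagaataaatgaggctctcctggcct
Ngp, chr9:110419558-110419807, plus strand: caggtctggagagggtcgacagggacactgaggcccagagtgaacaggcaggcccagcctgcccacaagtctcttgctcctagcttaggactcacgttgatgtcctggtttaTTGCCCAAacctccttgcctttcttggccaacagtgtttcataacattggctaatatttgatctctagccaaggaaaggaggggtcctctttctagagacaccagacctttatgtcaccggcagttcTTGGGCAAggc
Ltf, chr9:111019042-111019291, plus strand: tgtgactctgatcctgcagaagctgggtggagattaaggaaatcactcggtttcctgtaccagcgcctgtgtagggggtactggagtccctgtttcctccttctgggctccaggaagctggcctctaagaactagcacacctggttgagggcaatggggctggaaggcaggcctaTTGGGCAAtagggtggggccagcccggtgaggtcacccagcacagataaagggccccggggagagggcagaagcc
Lcn2, chr2:32387740-32387989, minus strand: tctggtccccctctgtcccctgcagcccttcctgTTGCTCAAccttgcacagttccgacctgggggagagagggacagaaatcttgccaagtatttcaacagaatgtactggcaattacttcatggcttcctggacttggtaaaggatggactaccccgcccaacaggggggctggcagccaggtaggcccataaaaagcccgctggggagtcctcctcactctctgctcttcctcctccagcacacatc
Of the 4 windows, 3 held a match: Ngp had 2, starting 138 and 11 bases before the transcription start, Ltf had 1 at 75 bases and Lcn2 had 1 at 216 bases. Over 32851 promoter windows of the same length, 9.56% held a match. A match of letters is a description of the sequence and not a measured binding site.

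The 23 mixed barcodes and the 8 Camp and Ngp cells, 1 of which belonged to both sets, were left out to give a second set of cells. The remaining 261 cells are called core neutrophils below, 109 and 109 in P-LC24 and P-HC24, then 30 and 13 in I-LC32 and I-HC32, with 474321, 465291, 82345 and 44436 UMIs. Core neutrophils were defined after the values were seen.

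Values of the libraries are listed from here on as low then high cholesterol group, week 24 before week 32. Retnlg was at 9243, 9407, 10250 and 10397 CPM in the core cells, where a single cell held 44.6% of the I-HC32 UMIs, and without that cell I-HC32 was at 6522 CPM. Over all 291 neutrophils the same gene was at 8949, 6203, 8084 and 18363 CPM, which placed I-HC32 far above the others. Csf3r was at 2384, 2216, 2307 and 2543 CPM in the core cells. Il1b was at 9650, 10127, 8343 and 9317 CPM there. Calprotectin transcripts made up 14.2% and 14.6% of core UMIs at week 24 and 10.6% and 11.7% at week 32.

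The comparison of P-HC24 with P-LC24 addressed high against low cholesterol at the end of the progression phase. Over all neutrophils, 1823 genes could be compared, that is, detected in 10% of the neutrophils on a side and with 100 UMIs in total. Past a ratio of 1.5 stood 328 with the higher level in P-HC24 (18.0%) and 341 with the lower (18.7%), around a median log2 ratio of -0.12. Leaving out only the mixed barcodes gave 104 higher (7.32%) and 112 lower (7.89%) of 1420. In the core neutrophils the numbers were 107 higher (7.67%) and 101 lower (7.24%) of 1395, with a median of -0.02. With 1 library on each side these counts describe the libraries and no test was possible.

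Among the 10 genes highest in P-HC24 over all neutrophils were Fn1, Saa3, Pf4, Ccl2, Pycard, Nr4a2, Apoe, Plxdc2 and Dbi. None of the 10 was among the 10 highest in the core neutrophils, but that ranking took only genes with at least 100 UMIs in total. Most of them fell below that limit in the core cells and could not have ranked there. Nr4a2, for example, had 1 core UMI in P-LC24 and 24 in P-HC24, a log2 ratio of 4.61. Apoe, the lipid carrier apolipoprotein E, had 1474 UMIs in P-HC24 against 60 in P-LC24 over all neutrophils, a log2 ratio of 4.17, and 53 against 47 UMIs in the core cells, a ratio of 0.20 (-0.39 to 0.80). Fn1, fibronectin, had 1474 UMIs in P-HC24 and none in P-LC24 over all neutrophils, and 10 and none in the core cells. Ccl2, a chemokine for monocytes, had 8 core UMIs in P-HC24 and none in P-LC24, so that it and Fn1 have no ratio, and the lower ends of their log2 intervals were 0.80 and 1.19. Of the other genes among the 10, 5 were past 1.5-fold in the core cells, 2 of them with an interval that left out 0.

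Of the 1395 genes compared in the core neutrophils, the gene whose interval lay furthest above P-LC24 was G0s2, an inhibitor of the triglyceride lipase Atgl. It was at 508 and 1565 CPM in P-LC24 and P-HC24, then 522 and 630 in I-LC32 and I-HC32, so that P-HC24 stood alone and the other libraries overlapped. The log2 ratio of P-HC24 over P-LC24 was 1.62 (1.41 to 1.84). G0s2 was found in 64.2% of core cells in P-HC24 and 40.4% in P-LC24, and in 46.8% and 20.2% after thinning to 1000 UMIs, against 0.2% and 0.6% of B cells unthinned. The cell richest in G0s2 held 4.81% of its core UMIs in P-HC24, but 60.7% in I-HC32, where 4 cells held all 28 UMIs and the level without the richest was 259 CPM. Among the other kept barcodes of these libraries the log2 ratio of G0s2 was 0.31.

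The cytokine and chemokine list stood at 15559 and 16486 CPM in the week 24 core cells. Of the 9 of its genes compared Cxcl2 passed 1.5-fold upwards and Ccl4 downwards, beside 7.67% higher and 7.24% lower of all genes. The interleukin-1 family cytokine Il36g was at 611 and 368 CPM in P-LC24 and P-HC24, a log2 ratio of -0.73, also past 1.5-fold downwards. Cxcl2, a chemokine that draws neutrophils through Cxcr2, was at 1056 and 2014 CPM in P-LC24 and P-HC24, then 1299 and 1508 in I-LC32 and I-HC32, a week 24 log2 ratio of 0.93 (0.77 to 1.09). Acod1, the enzyme that makes itaconate in activated phagocytes, was at 904, 1749, 631 and 1620 CPM, with a ratio of 0.95 (0.78 to 1.12). It was higher in the high cholesterol group of each week, and the week 32 ratio was 1.36 (0.82 to 1.90), where a single cell held 37.5% of the I-HC32 UMIs. Cd14, the co-receptor for bacterial lipopolysaccharide, was at 190, 458, 219 and 293 CPM, with a ratio of 1.27 (0.91 to 1.64), and I-LC32 was at 127 CPM without the cell that held 8 of its 18 UMIs. Cd14 and Cxcl2 were also higher in the other barcodes of P-HC24, with log2 ratios of 2.51 and 2.15, and Cxcl2 had a UMI in 35 of 500 P-HC24 and 5 of 500 P-LC24 B cells, against 70.6% and 58.7% of core neutrophils.

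Slc16a3, a lactate transporter, was at 350 and 722 CPM at week 24, a log2 ratio of 1.05 (0.77 to 1.32). The hypoxia factor Hif1a had 93 and 139 UMIs, a ratio of 0.61 (0.22 to 1.00). Without the P-HC24 cell richest in Hif1a the ratio was 0.57, under 1.5-fold. Stat4, a transcription factor downstream of interleukin-12, was at 105 CPM (78.2 to 139) and 335 CPM (285 to 392), a ratio of 1.67. Cebpb, a C/EBP factor of emergency granulopoiesis, was at 2224 and 3725 CPM, a ratio of 0.74 (0.63 to 0.86). At week 32 Stat4 was at 243 CPM in I-LC32, while I-HC32 had 135 from 6 UMIs, 3 of them in a single cell, and Slc16a3 was at 559 and 338 CPM. Cnnm2, Epc1, Thbs1 and the early response gene Ier3 completed the 10 genes that ranked highest in the core cells of P-HC24 among those with at least 100 UMIs, with log2 ratios from 1.28 to 1.99.

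Lower in P-HC24 stood Ccl4, a chemokine for monocytes and T cells, at 757 and 284 CPM in P-LC24 and P-HC24, then 376 and 293 in I-LC32 and I-HC32 of the core cells. At week 32 a single cell held 10 of the 13 UMIs in I-HC32 and 13 of the 31 in I-LC32, and without these cells the levels were 72.4 and 225 CPM. The week 24 log2 ratio was -1.42 (-1.71 to -1.12). Ccl4 was found in 26 of 109 core cells in P-LC24 and 24 of 109 in P-HC24, nearly the same share, and the 5 richest cells held 56.0% of its UMIs in P-LC24. As a mean over cells with equal weight the ratio was -1.26. The neighbouring family member Ccl3 was at 232 and 226 CPM.

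The 22 genes of pattern recognition and the inflammasome stood together at 10470 and 10363 CPM in the week 24 core cells. Of 13 compared Cd14 was past 1.5-fold higher, and Tlr4 and Nlrp12 lower, beside 7.67% higher and 7.24% lower of all genes. Fpr1 and Fpr2, which sense formylated peptides, had log2 ratios of -0.62 (-1.08 to -0.17) and -0.62 (-1.13 to -0.11), from 108 against 69 UMIs and 86 against 55 UMIs. Tlr4, the lipopolysaccharide receptor, had -0.78 (-1.30 to -0.27), in the opposite direction to its co-receptor Cd14. Mmp8, the neutrophil collagenase, was at 479 and 303 CPM at week 24, a ratio of -0.66 (-0.97 to -0.35), against -1.60 over all neutrophils. The leukotriene enzyme Alox5 had a ratio of -0.89 (-1.40 to -0.39).

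The orphan receptor Gpr141 was at 306 and 103 CPM in P-LC24 and P-HC24, then 158 and 270 in I-LC32 and I-HC32, with a week 24 log2 ratio of -1.57 (-2.07 to -1.09). That ratio was -1.36 over the other kept barcodes and -1.17 over 150 and 153 monocyte-type barcodes of these libraries, chosen by at least 2 UMIs of Csf1r and 5 of Lyz2. Oprm1, the mu opioid receptor gene, had -1.63 (-2.27 to -1.04) in the core neutrophils and -1.66 in the other barcodes. Ripor2, a regulator of cell polarity, had -0.70 (-0.81 to -0.58) and -0.79. The differences in these genes were therefore shared by the other cells of the libraries, in contrast to Ccl4 with -0.52 in the other barcodes and Tmem154 with -0.03 against -1.29 in the neutrophils.

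**Figure D4:**
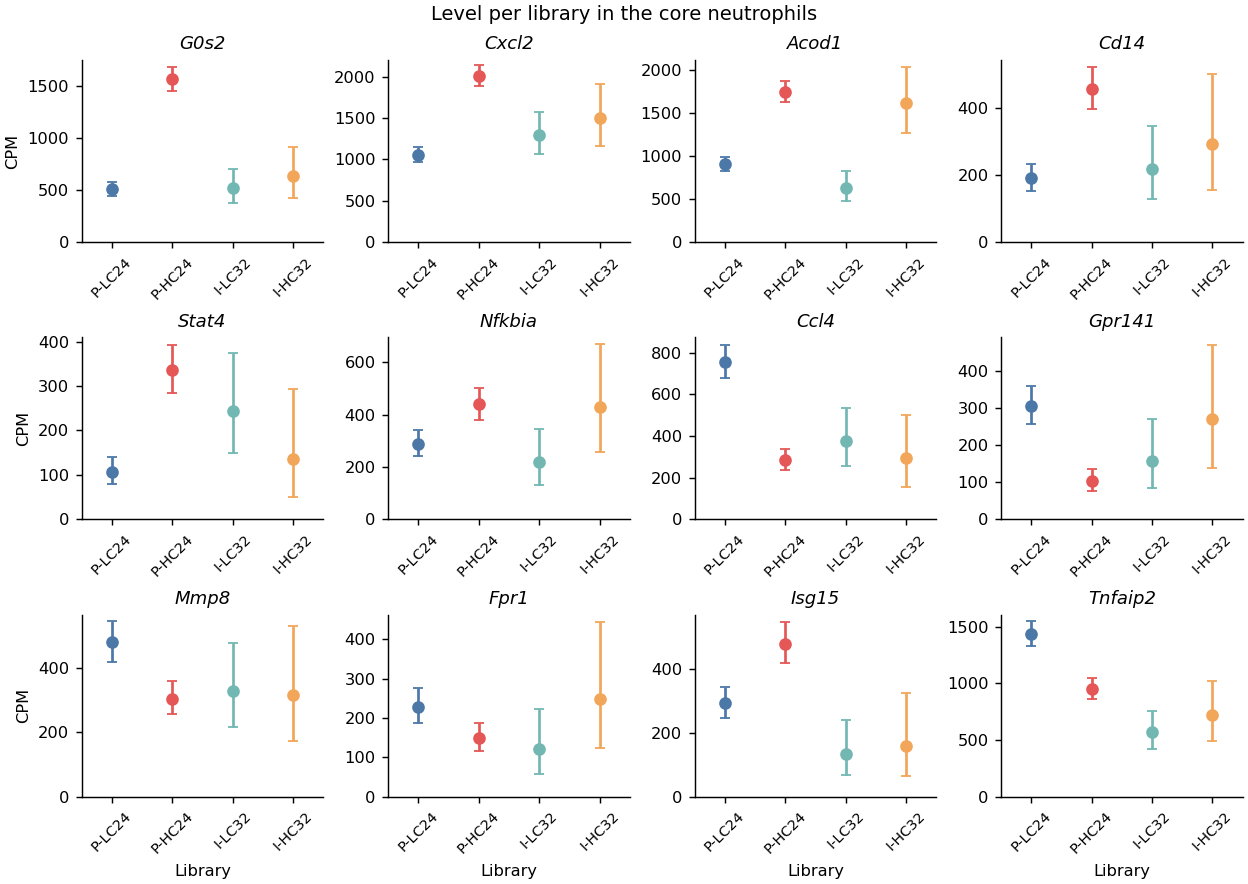
Level of 12 genes in the core neutrophils of each library, in CPM with 95% exact Poisson intervals that cover counting error only; every axis starts at 0. G0s2 in P-HC24 (1565 CPM) stands above the other libraries (508 to 630), and Ccl4 in P-LC24 (757 CPM) above the others (284 to 376).

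Gene lists are read in the core neutrophils of P-HC24 and P-LC24 beside the 7.67% of all genes compared that were higher and the 7.24% that were lower. Of 16 interferon-stimulated genes compared, 3 were at least 1.5-fold higher (Isg15, Isg20 and Irf7) and none lower, with a median log2 ratio of 0.21. Isg15 had 0.49, under 1.5-fold, without the cell that held 33 of its 222 UMIs in P-HC24. Over all neutrophils 2 of 19 were higher and 4 lower, beside 18.0% and 18.7% of all genes, with a median of -0.07. Of 10 genes compared from the gelatinase granule and secretory vesicle list 3 were higher, Adam8 and Cd14 among them. The 3 lower were Mmp8, Fpr1 and Fpr2. Without the P-LC24 cell richest in each, their log2 ratios were -0.42, -0.54 and -0.53, all under 1.5-fold. Of 9 genes of NF-kB feedback, Nfkbia and Ier3 were higher and Tnfaip2 lower. Nfkbia had 0.49 without its richest P-HC24 cell and Tnfaip2 -0.53 without its richest P-LC24 cell, both under 1.5-fold. All 5 antigen presentation genes compared lay above 0 without reaching 1.5-fold, with a median of 0.31.

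Of 13 chemoattractant and adhesion receptors none was higher and 2 were lower, Fpr1 and Fpr2. Without the P-LC24 cell richest in each, their log2 ratios were -0.54 and -0.53, under 1.5-fold. Of 6 genes of the NADPH oxidase, which makes the oxidative burst, and of 13 Fc and paired inhibitory receptors none passed 1.5-fold. The oxidative phosphorylation list differed between the sets of cells: 20 of 36 genes were higher over all neutrophils with a median of 0.67, beside 18.0% of all genes, whereas of the 18 that could be compared in the core cells 0 were higher or lower, with a median of -0.13. Leaving out the mixed barcodes alone gave 0 of 18 and a median of -0.13 as well. Of the cholesterol and lipid handling genes 5 of 9 were higher with a median of 0.75 over all neutrophils, and 1 of 5 (the triglyceride synthesis gene Dgat1) with a median of -0.16 in the core cells.

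**Figure D5:**
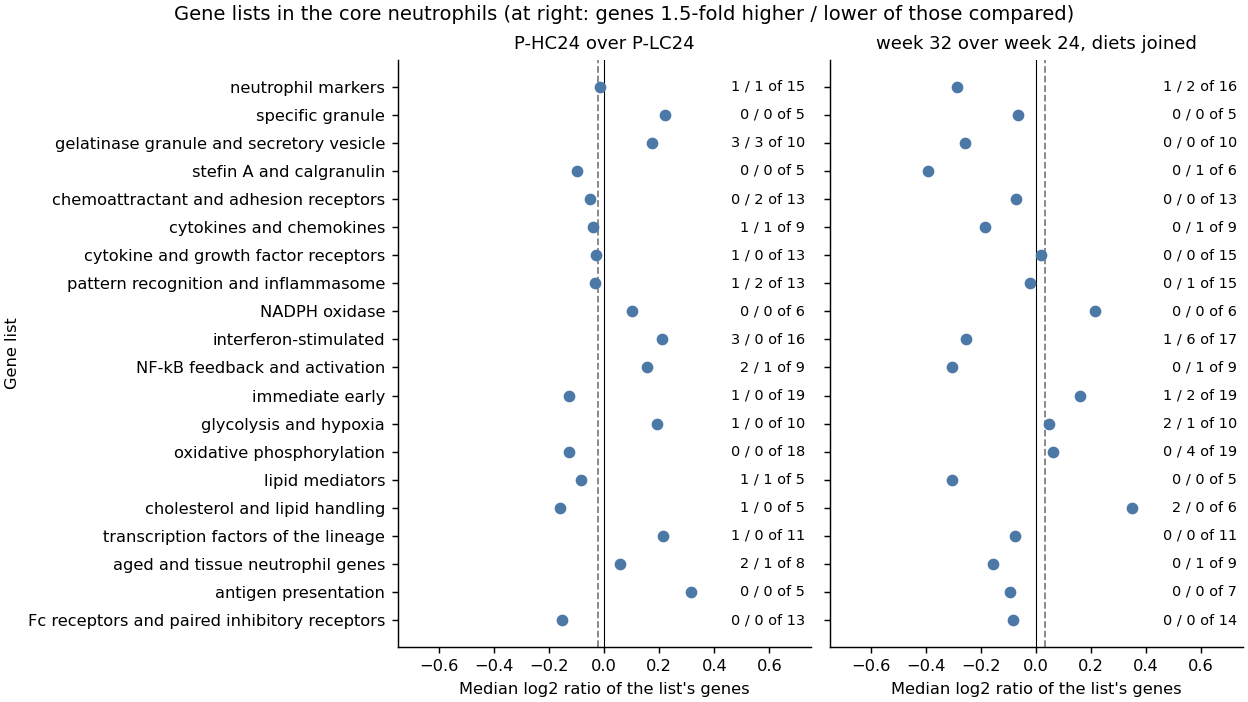
Median log2 ratio of each gene list in the core neutrophils for P-HC24 over P-LC24 (left) and week 32 over week 24 (right); the dashed line is the median of all genes compared, and the numbers at the right of each panel are genes at least 1.5-fold higher / lower of those compared. Interferon-stimulated genes sit at 0.21 on the left and -0.26 on the right.

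Because few neutrophils were recovered at week 32, the weeks were also joined by diet group, 139 neutrophils of the high and 152 of the low cholesterol groups. I-HC32 was on low cholesterol when sampled, and most cells on each side were those of week 24, so this comparison shares its cells with the previous one. It had 318 of 2027 genes higher (15.7%) and 306 lower (15.1%) over all neutrophils, 89 (5.44%) and 94 (5.75%) of 1636 without the mixed barcodes, and 94 higher (6.01%) and 92 lower (5.88%) of 1564 in the core cells. In the core cells G0s2 had a log2 ratio of 1.54 (1.34 to 1.74), Acod1 1.01 (0.85 to 1.17), Ccl4 -1.30 (-1.59 to -1.02) and Gpr141 -1.27 (-1.72 to -0.83). Within week 32 alone Gpr141 ran the other way, with a ratio of 0.77 (-0.49 to 2.02) from 12 UMIs of I-HC32 against 13 of I-LC32.

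The comparison of week 32 with week 24 joined the diet groups, 50 against 241 neutrophils. The weeks differ in age, in diet phase for the high cholesterol mice, in a prior aspiration and in library, which cannot be told apart. Over all neutrophils 172 of 2018 genes were at least 1.5-fold higher at week 32 (8.52%) and 304 lower (15.1%), and without the mixed barcodes 120 (7.31%) and 207 (12.6%) of 1641. In the core cells, 43 against 218, the counts were 144 higher (9.21%) and 148 lower (9.46%) of 1564. Over all neutrophils Camp, Ngp, Ltf, Cd177, Chil3, Syne1, Ly6g, Ifitm6, Lcn2 and Dach1 were furthest up. Camp was at 501, 0, 3909 and 9670 CPM over all neutrophils, and at 0 in the core cells of every library, so its whole level came from the 8 cells described above.

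Lcn2 had a log2 ratio of 1.67 at week 32 over all neutrophils and -0.22 (-0.48 to 0.04) in the core cells, where it was at 1187, 1268, 1166 and 855 CPM. A single cell held 26 of the 38 core UMIs of I-HC32, which was at 306 CPM without it. Ly6g, the surface marker used to stain mouse neutrophils, was higher in both sets, 2.11 over all and 0.96 (0.27 to 1.61) in the core cells, at 82.2, 120, 194 and 203 CPM. The core values of Ly6g rest on 16 and 9 UMIs at week 32, 6 of the 9 in the cell richest in Lcn2, and without that cell I-HC32 was at 76.4 CPM, below both week 24 libraries, and the ratio of the weeks was 0.63.

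The interferon-stimulated list stood at 11863, 12364, 9727 and 11995 CPM in the core neutrophils, so that I-LC32 was the lowest and I-HC32 lay between the libraries of week 24. Of 17 genes compared between the weeks, 6 were at least 1.5-fold lower (Isg15, Ifitm6, Irf7, Oas3, Slfn4, Slfn5) and 1, the factor Irf1, was higher, beside 9.46% lower and 9.21% higher over all genes, with a median log2 ratio of -0.26 against 0.03 over all genes. Isg15, a ubiquitin-like protein induced by type I interferon, was at 291 and 477 CPM in P-LC24 and P-HC24, then 134 and 158 in I-LC32 and I-HC32, so that both week 32 libraries lay below both of week 24, although the counting interval of I-HC32 (63.3 to 325) overlapped that of P-LC24 (244 to 344). Its ratio was -1.43 (-2.20 to -0.75), while the other kept barcodes had -0.12 and the monocyte-type barcodes 0.07. Slfn4 had -0.82 (-1.26 to -0.41), though I-HC32 alone was at 698 CPM, beside 677 and 774 at week 24. A single cell held 12 of the 31 Slfn4 UMIs of I-HC32, and without it the library was at 453 CPM and the ratio was -1.17. The intervals of Irf7 (-1.88 to 0.27) and Oas3 (-2.24 to 0.03) included 0, and Irf7, Oas3 and Slfn5 had 6, 5 and 6 core UMIs in I-LC32 and 3 each in I-HC32.

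Other genes that were lower at week 32 in the core neutrophils included Tnfaip2, an NF-kB responsive gene, at 1438, 952, 571 and 720 CPM with a log2 ratio of -0.94 (-1.29 to -0.61), and the immediate early factor Egr1 at 1699, 1461, 972 and 743 CPM with -0.83 (-1.12 to -0.55). Egr1 went the opposite way in the other kept barcodes, where its ratio was 0.86. Fos, another immediate early factor, was higher at week 32 in both, 0.64 (0.44 to 0.83) in the core neutrophils and 0.77 in the other barcodes. Srsf5, a splicing factor, was at 514, 582, 279 and 113 CPM with -1.31 (-1.92 to -0.76), where I-HC32 had 5 UMIs, 2 of them in a single cell, against -0.11 in the other barcodes. Lars2 and Cdk8 had ratios of -1.37 and -1.38 in the core neutrophils and -1.33 and -1.73 in the other barcodes, a difference shared across the libraries.

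Higher at week 32 in the core neutrophils were Nampt, the enzyme of the NAD salvage pathway, at 131, 159, 316 and 563 CPM with a log2 ratio of 1.47 (0.98 to 1.95), and Zeb2, a transcription factor, at 517, 387, 874 and 1170 CPM with 1.11 (0.81 to 1.40). In I-LC32 a single barcode, which also held genes of monocytes and is described below, had 47.2% of the 72 Zeb2 UMIs, and without it the library was at 509 CPM and the ratio was 0.74. For Nampt a single cell held 10 of the 25 UMIs in I-HC32, which was at 377 CPM without it, and another held 30.8% of the UMIs in I-LC32. Nampt had a ratio of 0.27 in the other barcodes. Wipf1, which acts on the actin cytoskeleton, had 1.16 (0.80 to 1.51), with 360 and 260 CPM at week 24, 425 in I-LC32 and 1193 in I-HC32. Rgs2, which damps G protein signalling, had 0.89 (0.54 to 1.22). Fabp5, a fatty acid binding protein, and Ppard, a lipid-sensing nuclear receptor, were the 2 of 6 cholesterol and lipid handling genes past 1.5-fold, beside 9.21% of all genes, with 0.82 (0.30 to 1.30) and 0.66 (-0.01 to 1.28). Both stood high in I-HC32 alone, Fabp5 at 226, 159, 231 and 540 CPM and Ppard at 137, 122, 109 and 383 CPM in the usual library order, and without the I-HC32 cell richest in both the ratios were 0.53 and 0.33, under 1.5-fold. A core barcode of I-LC32 with 7715 UMIs held 27 UMIs of Chil3, 21 of F13a1, 14 of Fn1 and 7 of Ccr2, genes of monocytes, beside 40 of S100a8 and 1 of Il1b. It was also the barcode richest in Zeb2 described above, and without it 119 of the same 1564 genes were higher at week 32 and 145 lower.

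Between the week 32 libraries, 17 against 33 neutrophils, 318 genes could be compared, 34 higher in I-HC32 (10.7%) and 81 lower (25.5%), and 21 (8.47%) and 44 (17.7%) of 248 without the mixed barcodes. In the core cells 13 stood against 30, and 20 genes were higher (10.5%) and 21 lower (11.1%) of 190. Retnlg had a log2 ratio of 1.18 over all neutrophils and 0.02 in the core cells, which became -0.65 without the I-HC32 cell that held 44.6% of its UMIs. Lamp2, a lysosome membrane protein, was at 838 CPM in I-LC32 and 2408 in I-HC32 of the core cells, a ratio of 1.52 (1.07 to 1.98), and Wfdc17 at 1239 and 3016, a ratio of 1.28 (0.90 to 1.67). A single cell held 49.3% of the Wfdc17 UMIs and 28.0% of the Lamp2 UMIs of I-HC32, and without the richest cell of each gene the ratios were 0.45 and 1.21.

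Haemoglobin RNA differed between libraries and moved with these comparisons. It made up 2.17% and 0.108% of neutrophil UMIs in P-LC24 and P-HC24, then 4.11% and 0.0339% in I-LC32 and I-HC32, and 1.79%, 0.959%, 1.62% and 0.317% in the other kept barcodes. In the core neutrophils, from which haemoglobin-rich barcodes were removed, it was 0.105%, 0.0453%, 0.151% and 0.0450%. Both low cholesterol libraries had more than both high cholesterol libraries in each of these sets, and the part of lysed red cells in the neutrophil values was not tested.

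Single neutrophils varied widely within a library. Among the 109 core cells of P-LC24, S100a8 had a median of 610 UMIs per 10000, with a highest value of 1605, and Retnlg from 0 to 507 with a median of 56.1. Csf3r was narrower, from 0 to 68.9 with a median of 23.2. In P-HC24 the medians of S100a8, Retnlg and Csf3r were 543, 56.6 and 21.2, and for Retnlg the medians at week 32 were 75.2 and 36.6. Across cells, the Spearman correlation of S100a8 with S100a9 was 0.95 for P-LC24 and 0.84 for P-HC24, and with Csf3r it was -0.35 and -0.30, over 109 cells each. These are descriptions: the cells of a library share its preparation, S100a8 also chose the cells, and levels as shares of UMIs in a cell cannot move independently.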

How the data were processed

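Liver non-parenchymal cells of 4 pooled libraries were profiled by 10x single-cell RNA sequencing. The files that the authors deposited hold UMI counts, not normalized, for each gene in each barcode. The authors made the count matrices with Cell Ranger 9.0.1 on the GRCm39 mouse genome and ran quality control in Seurat 5.3, per the study's methods and the submitters' processing notes. The counts were used as deposited. Barcodes with at least 500 UMIs, 300 genes and at most 10% mitochondrial UMIs were kept, and neutrophils were chosen among them. No doublet caller was run. The study states that doublets were removed, but the deposited matrices do not mark which barcodes those were. The limits on Cd79a, Cd3e and Cd3d left out only barcodes with those B and T cell genes. They are no substitute for a doublet caller, and 23 barcodes with genes of other cells passed them. No column was left unused (0 columns).

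Counts were summed per library and given as CPM. Ratios have exact conditional Poisson intervals and shares have Clopper-Pearson intervals, both at 95% and covering counting error only; a count of 0 allows 3 counts. With 1 library per condition there was no test. A gene was compared if detected in 10% of the neutrophils on a side, with 100 or more UMIs in total. Named genes were the 10 at each end by the interval end nearest 0, leaving out mitochondrial, haemoglobin and antigen receptor genes and genes whose CPM was under 0.5 times that of other barcodes, with list members past 1.5-fold and the leading genes; the same ranking was repeated for core neutrophils. Members and gene lists were chosen with earlier results of these data known, and core neutrophils after the values were seen. The 37 lists held 566 entries. Detection was repeated after thinning to 1000 UMIs. The scripts were tested on simulated data and used scipy 1.17.1, numpy 2.4.6, pandas 2.3.3, matplotlib 3.10.9 and Python 3.11.15. Promoters came from RefSeq (GRCm38.p6) and gene positions from a GRCm39 annotation. Near-identical genes (stefins, Hba, Ifitm, Sirpb1b) may share reads. Some genes are not reported here.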

Additional observations from a re-analysis of the deposited data

Results flagged for a closer look

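Left out of the neutrophils were 59 barcodes that passed the S100a8 and S100a9 limits but held a UMI of Cd79a, Cd3e or Cd3d: 23 and 26 in P-LC24 and P-HC24, then 6 and 4 in I-LC32 and I-HC32. Of these, 25 held 1 or 2 such UMIs and 26 held at least 9.

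For 5 genes the high over low cholesterol ratio over all neutrophils had opposite signs at the weeks, with both intervals away from 0; the differences themselves were not tested. Lcn2 had log2 ratios of -0.82 at week 24 and 1.80 at week 32, 2.61 apart, against 0.10 and -0.45 in the core neutrophils, where the week 32 value was -1.93 without the I-HC32 cell that held 68.4% of its UMIs. S100a8 had -0.71 and 0.64, 1.35 apart, against -0.15 and 0.11. Mmp8 had -1.60 and 2.30, 3.90 apart, against -0.66 and -0.06, where the week 32 value was -2.10 without the same cell, which held 11 of the 14 UMIs. Wfdc21 had -1.18 and 1.78, 2.95 apart, against -0.46 and -1.04. Cd74 had 0.78 and -4.55, a difference of -5.33, against 1.05 and 1.11 in the core neutrophils. None of the 5 had opposite signs at 1.5-fold in the core cells.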

How the results depend on the processing

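No paired test was run. The weeks form 2 pairs of pooled libraries from the same mice, which would leave 1 residual degree of freedom. The ratios within each pair are therefore given as a description. Of the 144 core genes higher at week 32, 109 were higher in both pairs and 34 passed 1.5-fold in both. Of the 148 lower, the numbers were 130 and 49. The joined ratio of these same pairs chose the genes, so the agreement between pairs was partly built in and is no replication. The matching share over all 1564 genes compared was not counted. Leaving out a replicate was not possible because each condition had 1 library. All 38 alternatives listed at the start were run; leaving out mixed barcodes, leaving out also the Camp and Ngp cells, leaving out the richest cell of a gene, the ratios within pairs, and dropping haemoglobin from the total were chosen after seeing the data. With a mitochondrial limit of 5% the shares were 2.77%, 3.77% and 0.819% in P-LC24, P-HC24 and I-LC32; with lymphocyte-marked barcodes kept, P-HC24 had 2.14%; without Cd79a barcodes in the denominator the 4 shares were 7.02%, 6.60%, 1.57% and 0.929%.

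Counts of genes higher and lower depended on the threshold, and some settings also changed how many genes could be compared. By the main rule 1823 genes were compared for P-HC24 over P-LC24, 2027 for the joined diets and 2018 for the weeks. The fold does not enter that number, but limits on UMIs and on cells do. Counts under such limits are therefore not shares of the same genes. For P-HC24 over P-LC24 the counts were 508 and 740 at 1.2-fold and 1425 and 1009 with at least 20 UMIs and no share of cells. There were 71 lower at 2-fold and 148 lower with equal weight per cell. For the joined diets they were 517 and 755 at 1.2-fold, 202 and 49 at 2-fold, and 1348 and 920 at 20 UMIs, with 144 lower at equal weight and 194 lower relative to the median gene. For week 32 over week 24 they were 484 and 653, 46 and 117, and 873 and 1377 in the same order. Subtracting free RNA gave 319 and 336 for P-HC24 over P-LC24 and 165 and 306 for the weeks.

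Leaving out barcodes with a UMI of 10 markers of other cells gave 85 and 93 for P-HC24 over P-LC24, 68 and 84 for the joined diets, and 89 and 184 for the weeks. That setting dropped 39 of 119 and 51 of 122 neutrophils in P-LC24 and P-HC24, then 7 of 33 and 4 of 17 in I-LC32 and I-HC32. Leaving out mixed barcodes gave 104 and 112 of 1420 genes compared and, for the joined diets, 89 and 94 of 1636. Core neutrophils gave 107 and 101 of 1395, then 94 and 92 of 1564 for the joined diets, and 148 lower of 1564 for the weeks. Some genes changed sign. Without the 10 markers these were Pf4 (-1.74) and Dbi (-0.15) for P-HC24 over P-LC24, Pf4 (-0.15) for the joined diets, and Fn1 (1.73) and Lyz2 (1.23) for the weeks. Without mixed barcodes they were Dbi (-0.23) for P-HC24 over P-LC24, Fn1 (-0.10) for the joined diets, and Fn1 (3.36) and Lyz2 (1.18) for the weeks. In core neutrophils they were Fn1 (-0.19) for the joined diets and Ifitm6 (-1.08), Lcn2 (-0.22), Dach1 (-1.65), Fn1 (3.66), Lyz2 (0.22) and Adgre1 (0.10) for the weeks. Of the 15 core UMIs of Fn1 in I-LC32, 14 were in 1 barcode, and without it the ratio of the weeks was 1.24. Without the same barcode the core ratio of Adgre1 was -0.54. The core ratio of Lyz2 was -0.01 without the cell that held 39.7% of its I-HC32 UMIs. The core sign changes of Adgre1 and Lyz2 each rested on a single barcode. The cause was not tested. Of the shares and gene counts under alternatives, 71 stayed close to the reported value and 43 moved. The ratios of named genes moved more often under some alternatives. With equal weight per cell 39 moved and 17 stayed close. Without mixed barcodes 34 moved, 4 changed sign and 18 stayed close, and in core neutrophils the numbers were 37, 7 and 11. With haemoglobin genes dropped from the total all 56 stayed close. The 17 neutrophils of I-HC32, with 76729 UMIs, limit what week 32 can show.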
